A study of Mus musculus with 2 samples.

Results

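The Reg genes encode small secreted proteins of the C-type lectin fold. Their signal was examined on 2 whole-transcript arrays of regulatory innate lymphoid cells (ILCregs), an innate lymphocyte population named for production of the regulatory cytokine IL-10. Members were the features of the deposited value table whose only gene symbol in the platform annotation was Reg1, Reg2, Reg3a, Reg3b, Reg3d, Reg3g or Reg4. All 7 were found, each through 1 feature, among 28281 genes that could be named. For Reg3g and Reg4 the annotation lists the symbol 2 times, with 1 gene identifier, and this was taken as 1 symbol. Both arrays, replicate 1 (array 1) and replicate 2 (array 2), belong to 1 group: cells the labels call ILCreg, sorted from small intestine, taken from mice aged 8 weeks that carry an IL-10-GFP knockin, of the C57BL/6 strain, with no treatment named. The knockin places green fluorescent protein at the Il10 locus, and the cells of both samples carry it. The sort was stated to exceed 95% purity by flow cytometry. The sources used here give neither its gates nor the number of mice, nor whether the arrays came from separate mice, so their spread may be only technical. No second cell population was analysed here, and no test between groups was possible.

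In the gut, Reg3b and Reg3g are secreted by enterocytes and Paneth cells as antibacterial lectins that bind bacterial surfaces, and they are induced by microbial signals through MyD88 and by IL-22 acting on epithelial receptors and STAT3. Reg1 and Reg2 are abundant products of the pancreatic acinar cell that are also made by intestinal epithelium, and Reg proteins are linked to tissue repair. Lymphocytes are not a known main source of Reg proteins; IL-22 from innate lymphoid cells is instead one of the signals that switches the genes on in epithelium.

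Of the 7 genes, 6 form a cluster on mouse chromosome 6 in the order Reg3b, Reg3d, Reg3a, Reg2, Reg1, Reg3g in the RefSeq annotation of GRCm38.p6, with 1 annotated pseudogene between Reg1 and Reg3g, while Reg4 lies on chromosome 3. RefSeq promoter windows of that build matched all 7 genes. The 60 bases before each annotated start are printed here because all 7 genes gave signal above background. They allow the bases next to each annotated start to be compared. Capitals mark TATAAA, the core letters of a TATA box, on either strand.
Reg1, chr6:78425923-78425982, plus strand: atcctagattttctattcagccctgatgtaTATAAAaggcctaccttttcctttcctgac
Reg2, chr6:78405095-78405154, plus strand: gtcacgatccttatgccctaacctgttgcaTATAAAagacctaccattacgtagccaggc
Reg3b, chr6:78370825-78370884, plus strand: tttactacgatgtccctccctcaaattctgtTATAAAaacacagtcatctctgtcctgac
Reg3g, chr6:78468875-78468934, minus strand: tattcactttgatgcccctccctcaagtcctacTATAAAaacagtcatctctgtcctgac
Reg3a, chr6:78380649-78380708, plus strand: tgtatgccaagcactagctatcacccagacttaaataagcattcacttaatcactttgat
Reg3d, chr6:78378866-78378925, minus strand: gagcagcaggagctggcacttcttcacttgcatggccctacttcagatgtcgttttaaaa
Reg4, chr3:98222096-98222155, plus strand: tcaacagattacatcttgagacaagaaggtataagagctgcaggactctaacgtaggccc

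The letters TATAAA lay near the start in 4 genes. They began 30 bases before the start in Reg1 and Reg2, 29 bases before it in Reg3b and 27 in Reg3g. Within 250 bases before the start, on either strand, 12.4% of the 32851 promoters in the table hold these letters. Reg3g had another match, on the opposite strand, and Reg3a, Reg3d and Reg4 had no exact match. Near matches were not counted, such as the letters tataag in the Reg4 window. The last letters of the Reg3a window, tcactttgat, also occur in the Reg3g window, farther from the start. Whether the annotated starts lie at matching positions across the family was not tested. Reg3b and Reg3g were the most alike upstream, with 68.9% identical columns in a global alignment of these 250 bases, and Reg1 and Reg2 followed with 58.5%. The lowest pair within the cluster, Reg3a and Reg3b, had 47.9%, and the 6 pairs with Reg4 had between 47.8% and 50.2%. The remaining cluster pairs reached at most 54.5%, the value of Reg2 with Reg3a. Gapped alignment also yields identical columns between unrelated sequences. No unrelated promoters were aligned in this way, so which of these values exceed that background was not tested.

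STAT factors bind palindromes of the form TTCNNNGAA, and STAT3 is the known mediator of the IL-22 response, so these letters were also searched for. They were present upstream of 2 of the 7 genes, Reg3b and Reg3d, against 7.02% of all promoters over the same length. The 40 bases around each are given with the match in capitals.
Reg3b, chr6:78370741-78370780, plus strand: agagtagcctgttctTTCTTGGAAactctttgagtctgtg
Reg3d, chr6:78379076-78379115, minus strand: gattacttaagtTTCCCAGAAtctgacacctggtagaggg
The match began 129 bases before the start of Reg3b and 238 before that of Reg3d. The E-box letters CACCTG, searched on both strands, were found upstream of Reg2, Reg3a, Reg3b, Reg3d and Reg4, and 17.2% of all promoters hold them. None of the 3 motifs overlapped another. A match of letters does not show that a factor binds, and these motifs were picked once the sequences had been seen.

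**Figure D1:**
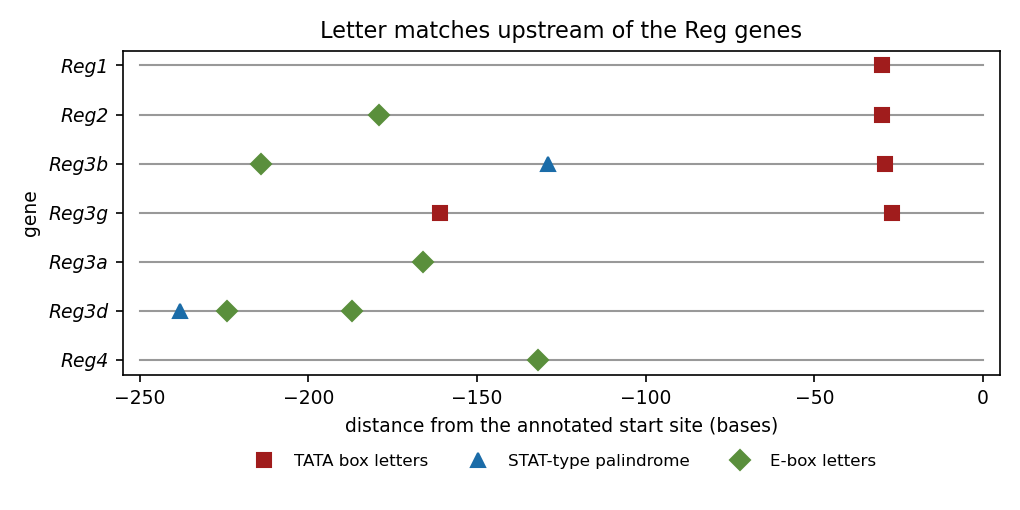
Positions of 3 letter motifs in the 250 bases upstream of each Reg gene, with the distance from the annotated start site in bases on the horizontal axis and 1 line per gene. Squares (TATAAA) stand 27 to 30 bases before the start of Reg1, Reg2, Reg3b and Reg3g. A further Reg3g square, on the opposite strand, stands 161 bases before the start. Triangles (TTCNNNGAA) occur in Reg3b and Reg3d, and diamonds (CACCTG) in 5 genes.

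The values are the authors' and were read as log2 signal. Whether a gene stood out from signal that arises without transcript was judged against 1678 olfactory, vomeronasal and taste receptor genes. The 95th percentile of these, 6.74 on array 1 and 6.19 on array 2, served as the threshold, and 2.44% of the receptor genes themselves exceeded it on both arrays. All 7 Reg genes exceeded it on both, where 31.7% of all named genes did. Their median signal was 9.96, against 5.43 for all named genes and 8.46 for those above the threshold. Probes differ in affinity, so the order of signals given here is an order of signal and not of transcript abundance.

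Reg1, the lithostathine gene first known from pancreas, gave the highest signal of the family, 17.03 on array 1 and 17.62 on array 2, a mean of 17.33 ± 0.42 (SD, n = 2). Only 143 of the named genes had a higher mean. Both values exceed 16, the log2 of the largest 16-bit scanner reading, as did 688 and 673 features of the whole arrays. How the authors' processing arrived at values in that range is unknown. The highest values of the arrays were 19.80 and 19.86, and the Reg1 values differed by 0.59 where those highest values differed by 0.06.

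Reg2, the neighbour of Reg1 and the gene most like it upstream, had signals of 14.56 and 14.51, or 14.53 ± 0.04. Its arrays were closer together than those of any other member. It stood 7.82 above the threshold on array 1 and 8.32 above that on array 2. The gap to Reg1, 2.79 on the log2 scale, exceeded the SD of either gene.

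Among the type 3 genes the antibacterial lectin gene Reg3b was highest, with 13.34 and 13.15, a mean of 13.25 ± 0.13. Reg3g, which encodes a lectin active against Gram-positive bacteria and is the closest to Reg3b upstream, gave 9.45 and 9.68, or 9.56 ± 0.16. Reg3a, whose human namesake is the pancreatitis-associated protein, gave 9.78 and 10.14, or 9.96 ± 0.25. On both arrays Reg3a lay above Reg3g, by 0.33 and 0.46, and their values did not overlap. Genes of this family are close in sequence and probe sequences were not analysed here, so signal shared between copies cannot be told apart.

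Reg3d and Reg4 were the members nearest the threshold. Reg3d, related to a hamster islet growth factor, gave 7.49 on array 1 and 6.35 on array 2, a mean of 6.92 ± 0.80, and its margin on the latter was only 0.17. Reg4, expressed in secretory and endocrine cells of the gut, gave 7.09 and 7.51, or 7.30 ± 0.29, with margins of 0.35 and 1.32. Their values overlapped: Reg3d was the higher by 0.39 on array 1 and Reg4 by 1.16 on array 2, so they have no order. Against the stricter 99th percentile of the receptor genes, 7.91 and 7.21, Reg3d fell short on both arrays and Reg4 on array 1, and the other 5 genes passed.

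**Figure D2:**
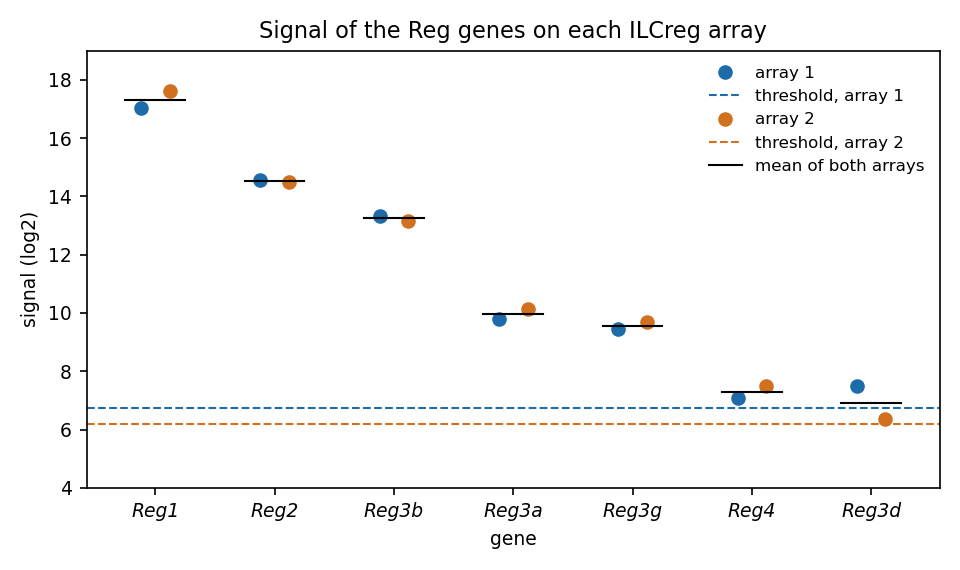
Signal on the log2 scale (vertical axis) of the 7 Reg genes (horizontal axis) on array 1 and array 2, with the mean as a black line and each array's threshold dashed. Reg1 stands at 17.33 and Reg2 at 14.53, while Reg3d and Reg4 lie next to the thresholds of 6.74 and 6.19.

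In the order of mean signal, Reg1, Reg2, Reg3b, Reg3a, Reg3g, Reg4 and Reg3d, each neighbouring pair except the last had values that did not overlap. The family thus spanned from 6.92 to 17.33 although 6 of its genes share 1 chromosomal cluster. Within the cluster, Reg3d lies between Reg3b and Reg3a, whose mean signals were 6.33 and 3.04 higher than its own. Gm5576, a pseudogene annotated next to Reg3b outside the cluster, gave 6.29 and 6.90 and passed the threshold only on array 2.

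Each member was then compared between the arrays as array 2 minus array 1. The median of this difference over the named genes, -0.05, was subtracted. Such a difference sets 1 array against 1 and has no replicate check. Reg3d differed most, by -1.08, and was the only member past 1 on the log2 scale, a limit that 4.16% of the 8971 named genes above the threshold passed in either direction. The other 6 members lay between -0.14 and 0.64. Reg1 was higher on array 2 by 0.64, Reg4 by 0.47, Reg3a by 0.40 and Reg3g by 0.28. Reg3b differed by -0.14, and Reg2 by less than 0.01 in size. The root mean square of the same centred difference over the genes above the threshold was 0.48, which Reg1 and Reg3d exceeded in size and the other 5 members did not.

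**Figure D3:**
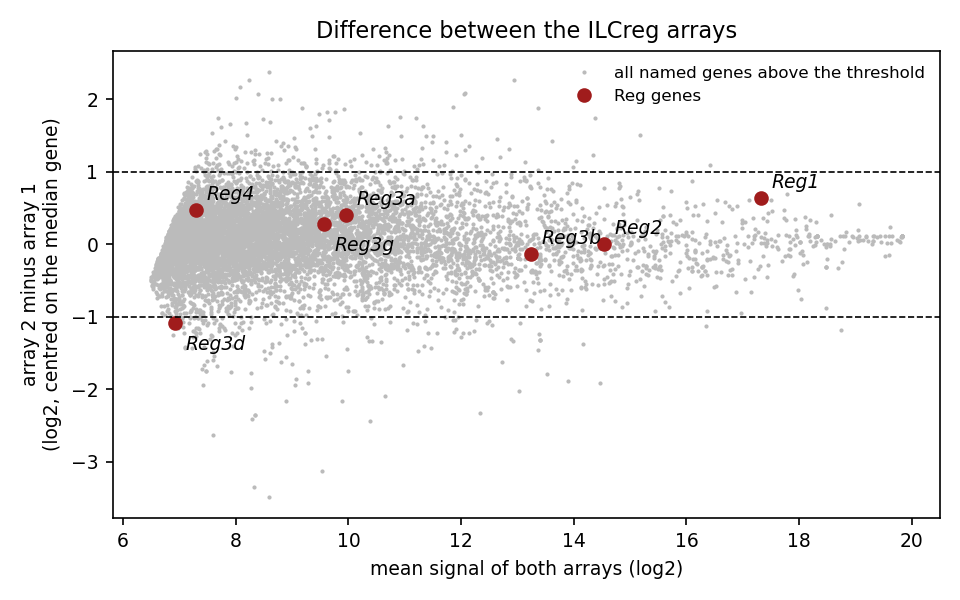
Difference between the arrays (array 2 minus array 1, log2, centred on the median gene; vertical axis) against the mean signal (log2; horizontal axis) for the Reg genes (red) and all 8971 named genes above the threshold (grey); dashed lines mark a difference of 1 either way. Reg3d, at -1.08, is the only Reg gene past a dashed line.

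The signals that act on Reg genes were read on the same arrays. Of 6 cytokines known to induce them, only Il6 passed the threshold on both arrays, with 12.34 ± 0.22. Il22, the inducer made by group 3 innate lymphoid cells, gave 4.80 and 3.85, below the threshold on both, and Il17a gave 3.99 ± 0.02. A signal below the threshold does not show that a transcript is absent.

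Of 14 measured receptor and signalling genes, 13 passed on both arrays. Il22ra1, the receptor chain that confines the IL-22 response mainly to epithelial cells, gave 8.31 and 7.41, or 7.86 ± 0.64. Stat3 stood at 11.91 ± 0.33 and Il6st, the shared gp130 chain of the IL-6 family receptors, was highest at 12.92 ± 0.27. Extl3, which encodes an exostosin-like protein described as a receptor for Reg proteins, gave 8.73 and 9.47, or 9.10 ± 0.53. Socs3, the feedback inhibitor that STAT3 induces, was the exception at 4.23 ± 0.06. Il17ra, one of the receptor chains for IL-17, was the most different between the arrays, by -0.92, with a mean of 7.69 ± 0.68.

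Of 9 measured epithelial defence genes outside the Reg family 3 passed, or 33.3%, near the 31.7% of all named genes. Pigr, the receptor that carries IgA across the epithelium, was highest at 14.83 ± 0.06. Retnlb, the goblet cell antibacterial gene, was lowest at 4.39 ± 0.13, and Nos2 gave 5.98 ± 0.52, below the threshold on both arrays. The median of this list was 5.52, close to that of all named genes. Of the 9 genes, 8 were lower on array 2 after centring, with a median difference of -0.33. The receptor gene percentiles were also lower on array 2, and a link was not tested.

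Marker lists of the cells that are known to make Reg proteins were read on the same arrays. All 8 pan-epithelial markers passed, with Krt8 highest at 15.59 ± 0.24 and Cldn7 lowest at 9.58 ± 0.04. Krt19 differed most between the arrays, by 0.45. The median of these markers was 11.85 on array 1 and 11.86 on array 2. Of 8 measured Paneth cell genes 7 passed. The lysozyme gene Lyz1 was highest at 13.57 ± 0.28, the phospholipase gene Pla2g2a lowest at 6.10 ± 0.31, and the alpha-defensin gene Defa22, one of a family of near-identical copies, gave 11.92 and 10.81, a centred difference of -1.06. Of 7 goblet cell genes 6 passed, with Zg16 highest at 13.84 ± 0.17, and Clca1 differed most, by 0.79. Spdef, the lowest at 6.29 ± 0.20, passed only on array 2.

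Of 8 enterocyte genes 6 passed, and all 8 were lower on array 2 after centring, by a median of 0.30. The lower receptor gene percentiles of that array apply here too. The fatty acid binding protein gene Fabp1 was both highest and most different, with 13.04 on array 1 and 11.90 on the other. The lowest was the apolipoprotein gene Apoa4 at 5.38 ± 0.48. Relative to the median gene, 4 Reg genes were higher on array 2 and 3 were lower. A link between them and the enterocyte genes was not tested. Of 4 stem cell genes 2 passed, with Olfm4 at 12.56 ± 0.25 against 4.67 ± 0.07 for Ascl2, and Lgr5 at 5.07 ± 0.37 did not pass. None of 7 enteroendocrine genes, cells in which Reg4 is also found, passed on both arrays. Sst was the highest of these, with 6.93 on array 1 and 4.82 on the other, and Cck the lowest at 3.97 ± 0.14.

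Pancreatic acinar genes gave the highest median of the lists examined, 15.19, against 9.96 for the Reg genes. Of 12 measured 10 passed. The chymotrypsinogen gene Ctrb1 had a mean of 19.65, with 19.62 and 19.68, below the highest values of the arrays. Its arrays differed by the same amount as those highest values, 0.06. Its SD was therefore not read as spread, and whether its signal was saturated was not tested. The carboxypeptidase gene Cpa1, named after its values were seen, gave 17.76 ± 0.06, and the elastase gene Cela1, the most different of the list at 0.74, gave 15.14 ± 0.49. The 2 that did not pass were the transcription factor genes Ptf1a at 3.53 ± 0.21 and Bhlha15 (also named after its values were seen) at 3.70 ± 0.10. The part of pancreatic or epithelial RNA in the Reg signals was not tested.

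Genes linked to the labelled cell type were read on the same arrays. Of 10 measured ILCreg identity genes 8 passed, or 80%, against 31.7% of all named genes. Among them were Ptprc, the leukocyte antigen CD45, at 12.21 ± 0.10 and Il10 at 10.82 ± 0.32. Il7r, the most different at 0.85, gave 8.92 ± 0.56. Genes such as Ptprc are shared with other leukocytes, and the cells are named for IL-10. The list therefore cannot check the label. Thy1 (5.64 ± 0.11) and Tbx21, named after its values were seen, did not pass. Marker genes of leukocytes, intestinal epithelium and pancreatic acinar cells thus passed on the same arrays. In such bulk RNA the share of a cell type and the amount of RNA per cell cannot be told apart, and the cells behind the signal of a Reg gene cannot be read from these values.

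**Figure D4:**
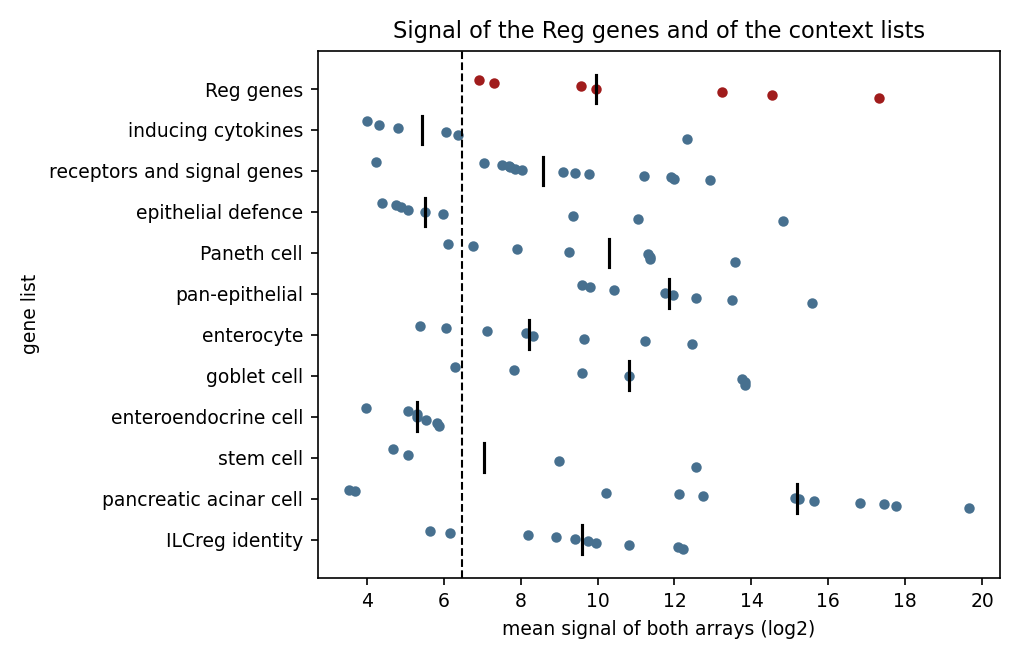
Mean signal over both arrays (log2, horizontal axis) of each measured gene of the 12 lists (rows; Reg genes in red), with list medians as black bars and the mean threshold of 6.47 dashed. The Reg genes lie to the right of the dashed line, as do all pan-epithelial markers, and the acinar list has the highest median, 15.19.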

How the data were processed

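RNA of sorted ILCregs was amplified with a whole-transcript Pico kit and hybridised to 1 array per sample, per the labels' protocols. The deposited table holds 1 value per feature and array, between 2.10 and 19.86, read here as log2 signal from that range, since the log base is not stated. The submitters' processing notes name MAS5. Its role, like the summarization, scaling and annotation build, is not given in the sources used here. Of 61344 features, 28573 had 1 distinct symbol (14492 of them listing it repeatedly), 2014 had several and 30757 had none. Symbols were updated through Entrez identifiers, 21104 of 21331 of which matched the RefSeq GRCm38.p6 annotation. For genes with several features (213) the highest mean was used. Values are means ± SD over 2 arrays, whose number limits the precision. Thresholds, centred differences and alternatives were computed with Python 3.11.15, pandas 2.3.3 and numpy 2.4.6, and promoter alignments with Biopython 1.88 (match 1, mismatch -1). The call rule and differences were tested on simulated data, which do not vouch for calls at margins as small as those of Reg3d and Reg4. The members and lists were chosen with earlier results of these data known. Named were all members, the highest, lowest and most different gene of each list, and Extl3, Il22, Il22ra1, Stat3, Il10 and Ptprc. No gene is named for likeness to a member, since 2 arrays give a single difference.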

Additional observations from a re-analysis of the deposited data

Results flagged for a closer look

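Signal was also present in features left unused. Of the 30757 features without a gene symbol, 4507 (14.7%) lay above the threshold on both arrays, and none of them was named or set beside the Reg genes.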

How the results depend on the processing

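The count of Reg genes above the threshold was 7 of 7 under the 90th percentile, the keratin-associated protein and Rhox reference, the median over features, quantile normalization and the platform's own symbols, and 7 without replicate 1 or replicate 2. It was 5 at the 99th percentile, where Reg3d and Reg4 fell short. It was also 5 with only features that list their symbol once, which leaves out Reg3g and Reg4 by construction and was chosen after seeing the data. The count of all named genes, 8971, was 5588 at the 99th percentile, stricter by construction, and 4069 with symbols listed once, where fewer genes are read. It ranged from 9147 to 10925 without 1 replicate, where it cannot fall below 8971. The centred difference of Reg2, -0.0024, turned to 0.023 after quantile normalization, a shift smaller than its SD of 0.04; the cause was not tested. The other members kept their sign under each centring and after quantile normalization, and no member's mean signal moved by more than its SD after quantile normalization. Each member has 1 feature, so the median over features leaves it as it is. Leaving out 1 of 2 arrays moves a mean by a fixed fraction of its SD, so it says nothing about the stability of the means. No paired analysis was possible because the design has 1 group. Quantile normalization keeps the ranks within an array, so its counts say nothing about stability. It also averages the values of both arrays at each rank. A mean over the 2 arrays therefore stays close to its old value by construction, which says nothing about its stability either.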
